A study of Fukomys damarensis and Heterocephalus glaber and Mus musculus with 160 samples.

Results

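The regions described here are 14253 stretches of the Damaraland mole-rat (Fukomys damarensis) genome that carried the chromatin marks of an active enhancer in the heart and no consensus mark in the liver. They were chosen from lists of peaks, the places where chromatin immunoprecipitation followed by sequencing (ChIP-seq) recovered more DNA than an untreated input. A consensus region of a tissue and mark was made of peaks that overlapped a peak of another animal by at least 50% of the shorter one. By the same 50% limit, a heart-only active enhancer was a heart H3K27ac consensus region that overlapped heart H3K4me1 and did not overlap heart H3K4me3. It also overlapped no liver consensus region of any mark by that limit. Heart-only active enhancers made up 18.5% of the 77153 heart H3K27ac consensus regions and 47.0% of the 30348 active enhancers of the heart.

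The series compared regulatory chromatin of heart and liver between 4 rodents, namely Damaraland and naked mole-rats, guinea pigs and mice. All Damaraland mole-rats were adult and wild-type. The heart group of each of the 3 marks held 5 males, DMR1, DMR4 and DMR11 with an estimated age of 48 months and DMR2 and DMR3 of 36 months. The liver H3K27ac and H3K4me1 groups held DMR1, DMR2, DMR3, DMR4 and a female of 48 months, DMR6, and the liver H3K4me3 group held DMR1 and DMR4. The heart of DMR6 gave the only library of the transcription factor TBX5, and livers of DMR1 and DMR4 gave 8 libraries of liver transcription factors. In the other species all animals were adult wild-type males, naked mole-rats of 13 to 17 months, guinea pigs of 2.3 months and C57BL/6J mice of 2 months, with 1 mouse heart sample per mark labelled with 3 animals. Chromatin came from whole organs, so the cell types that carry a mark cannot be told apart. No gene was assigned to a region and the tissue labels were not checked against marker genes, because no annotation of the files' build, DMR_v1.0, was used here.

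Enhancers are stretches of DNA that raise transcription of a gene at a distance. Their nucleosomes carry H3K4me1 (histone H3 monomethylated at lysine 4), and acetylation of the same histone at lysine 27 (H3K27ac) is added where the enhancer is in use. A region with H3K4me1 and no H3K27ac is called primed. Trimethylation at lysine 4 (H3K4me3) marks promoters, where transcription starts. Enhancers differ between tissues far more than promoters do, and TBX5 is a T-box factor that binds enhancers of heart muscle genes and is needed for heart development.

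Libraries differed in length. The 27 Damaraland histone lists held 20803 to 165394 peaks, and read depth is unknown. Library names start with do or vl, which the labels do not explain. In the heart, DMR2 and DMR4 were do libraries for every mark and the other 3 animals vl libraries. The 2 do hearts had the 2 longest H3K27ac lists, with 139112 peaks in DMR2 and 118481 in DMR4, against 97772 in DMR3, 87308 in DMR11 and 51446 in DMR1. For H3K4me1 the do lists were again the longest, 158541 peaks in DMR2 and 128455 in DMR4, and that of DMR11 was the shortest at 32893, against 92143 in DMR1 and 88163 in DMR3. The H3K4me1 list of the DMR1 heart is tagged 40M in its name, which the labels leave unexplained. Which regions were chosen depended on these libraries. The same rule applied to the do libraries of both tissues gave 8483 regions, of which 79.1% overlapped one of the 14253, and applied to the vl libraries gave 7341, of which 54.9% did (liver H3K4me3, with do libraries only, was kept). Of the 14253 heart-only active enhancers, 44.9% were found again with the do libraries, 26.4% with the vl libraries, and 2262 (15.9%) with each of the 2 series separately. With the lists of a tissue and mark cut to equal numbers of peaks, the rule gave 3660 regions.

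Each step of the rule removed a large share of regions. Of the 77153 heart H3K27ac regions, 22730 overlapped heart H3K4me3 and are called promoters here, 24075 overlapped neither H3K4me3 nor H3K4me1, and 30348 were active enhancers. A liver consensus region overlapped 16095 (53.0%) of the active enhancers, which are called liver-shared below and serve as the comparison throughout. Of these, 10605 overlapped liver H3K27ac and 5480 overlapped liver H3K4me1 alone. The overlap rule places some regions close to its limit. A liver consensus region overlapped 778 of the heart-only enhancers (5.46%) by less than 50% of the shorter, which the rule does not count. The heart-only region nearest the limit for the liver, KN124379.1:2526980-2532406, overlapped a liver region by 49.9% of the shorter, and all 5 liver H3K27ac libraries and 4 of 5 liver H3K4me1 libraries had a peak in it. The closest liver-shared region, KN124698.1:2715517-2715960, overlapped by 50%. At the H3K4me1 limit, KN121627.1:3644312-3644543 was kept with an overlap of 50%, and KN123497.1:1033522-1034442 was left out with 49.9%.

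Heart-only active enhancers were about as wide as heart H3K27ac regions in general. Their median width was 814 bases, against 831 for all 77153 regions, the tenth and ninetieth percentiles were 360 and 2404 bases, and the widest was 14150 bases. Liver-shared enhancers had a median of 1159 bases and promoters of 1173, while heart-only primed enhancers had 625 and active enhancers of the liver without a heart region had 713. A width of 2000 bases or more was found for 15.0% of the heart-only enhancers, 16.6% of all heart H3K27ac regions and 28.8% of the liver-shared enhancers. In all, the heart-only enhancers covered 16.7 Mb. These widths and the folds that follow come from the lists that chose the regions and are given without a test. A consensus width is a union over animals and grows with the number of animals that have a peak. With equal numbers of peaks per list the median was 1514 bases.

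The fold enrichment of a peak is the authors' own value, the linear ratio of reads over background given by their peak caller, and for each library the highest peak at a region was taken. The median H3K27ac fold at heart-only enhancers was 6.23 in DMR2, 5.49 in DMR4, 5.93 in DMR1, 5.88 in DMR3 and 5.46 in DMR11. Median folds over all peaks of the same lists were 5.60, 4.94, 5.71, 5.72 and 5.46, so that the heart-only enhancers lay between 1.00 and 1.11 times their own list. Read the same way, all heart H3K27ac regions had median folds of 7.33, 6.07, 6.27, 6.73 and 6.04, or 1.10 to 1.31 times their list, above the heart-only enhancers in 5 of 5 hearts. Liver-shared enhancers had median folds of 7.33, 6.16, 6.28, 6.89 and 6.24 in the same order, above the heart-only enhancers in 5 of 5 hearts, although the 2 sets of values overlap between animals. The width of the strongest peak followed the same order, from 428 to 606.5 bases in heart-only and from 556 to 771 bases in liver-shared enhancers, and DMR4 was the widest in both. Promoters reached higher folds, 10.1 ± 2.79 (SD, n = 5).

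**Figure D1:**
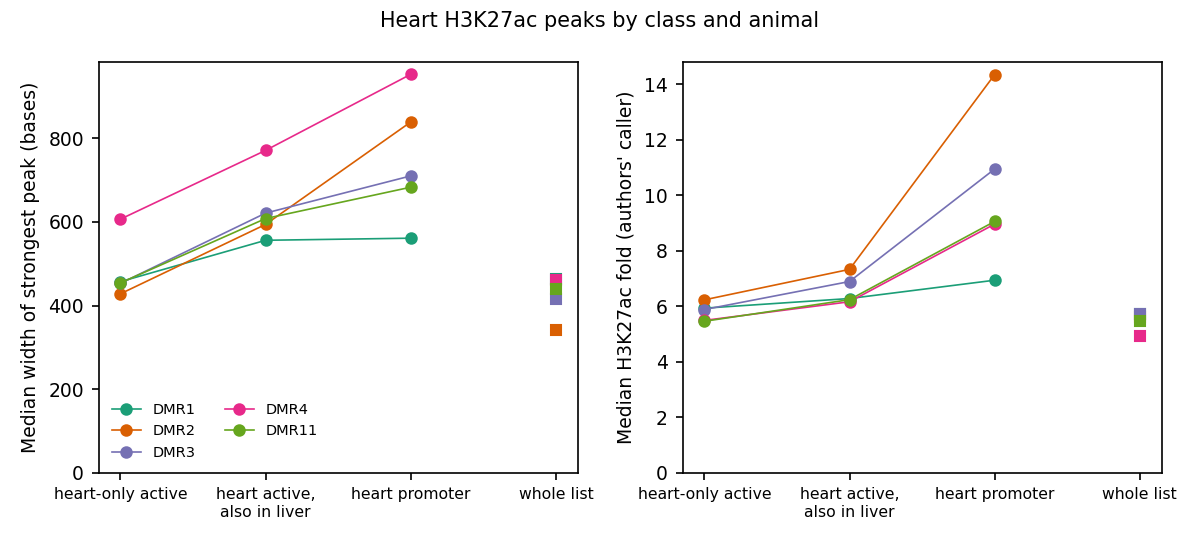
Median width in bases of the strongest H3K27ac peak (left) and its median fold enrichment (right) at heart-only active enhancers, liver-shared active enhancers and promoters, one line per heart. Squares give the median over every peak in the list of that heart, not over the strongest per region. Each heart shows lower values at heart-only than at liver-shared enhancers, 428 to 606.5 bases against 556 to 771. Liver-shared enhancers more often held several peaks of a library to choose from.

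The enhancers recurred unequally over the hearts. An H3K27ac peak was found at 87.4% of them in DMR2, 84.6% in DMR4, 74.4% in DMR3, 64.4% in DMR11 and 37.6% in DMR1, which is the order of the list lengths. All 5 hearts had a peak at 4189 heart-only enhancers (29.4%, against 35.6% of all heart H3K27ac regions, a background that the rule itself used). Peaks in 2 hearts, the fewest the rule allows, were found at 4327 (30.4%), in 3 hearts at 2894 and in 4 hearts at 2843. Of the liver-shared enhancers, 41.6% had a peak in all 5 hearts. Width rose with recurrence, from a median of 444 bases with 2 hearts to 661 with 3, 1034 with 4 and 1912 with 5. H3K4me1 was found in fewer libraries. A heart H3K4me1 peak was present at 79.8% of the heart-only enhancers in DMR2, 73.9% in DMR4, 67.5% in DMR1, 57.9% in DMR3 and 20.9% in DMR11. Both marks were present in all 5 hearts at 1009 (7.08%).

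**Figure D2:**
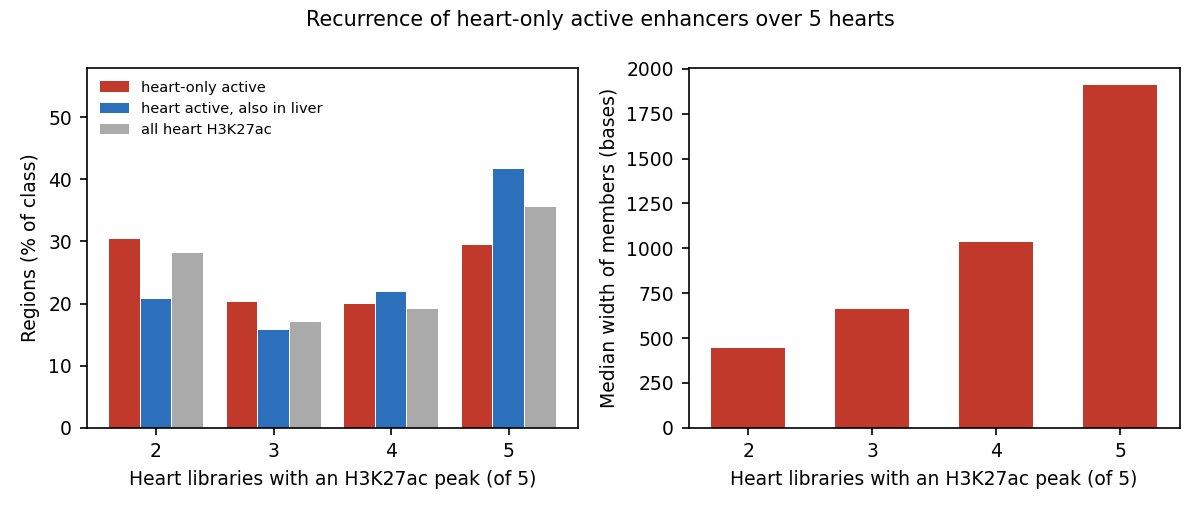
Share of regions by the number of hearts, of 5, with an H3K27ac peak (left), for heart-only active enhancers, liver-shared active enhancers and all heart H3K27ac regions, and median width in bases of the heart-only enhancers by the same number (right). Of the heart-only enhancers, 30.4% had a peak in 2 hearts and 29.4% in 5 hearts, and their median width rises from 444 to 1912 bases.

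Overlap with H3K4me1 was part of the rule, which sets much of its coverage. A median of 88.4% of the bases of a heart-only enhancer lay under a heart H3K4me1 consensus region, against 93.5% for liver-shared enhancers. H3K4me1 reached beyond both ends of the H3K27ac region at 36.4% of heart-only and 41.4% of liver-shared enhancers. The stretch covered by either mark had a median of 1480 bases at the heart-only enhancers, and 8.23% of them spanned 2 or more separate H3K4me1 regions.

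Liver libraries taken one at a time left traces that the consensus did not count. No liver library of any mark had a peak at 10795 of the 14253 heart-only enhancers (75.7%). This share was not counted over all heart H3K27ac regions. At least 1 liver H3K27ac library had a peak at 1265 (8.88%, against 51.5% of all heart H3K27ac regions), and at least 1 liver H3K4me1 library at 2802 (19.7%, against 55.9%). The liver consensus is part of the rule, so these shares had to be lower than the background. Peaks of 2 or more liver H3K27ac libraries lay in 217 heart-only enhancers (1.52%, against 44.4% of all heart H3K27ac regions). Those of 2 or more liver H3K4me1 libraries lay in 481 (3.37%, against 44.8%). No liver consensus region overlapped these enhancers by 50% of the shorter, so these shares had to be low as well. The share with any liver peak rose with recurrence in the heart, from 18.4% of enhancers with a peak in 2 hearts to 30.3% of those with a peak in all 5. Median width rose over the same bins, from 444 to 1912 bases, and its part in this was not tested. Full recurrence in the heart together with no liver peak was found for 2918 (20.5%), a share not counted over all heart H3K27ac regions.

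To measure recurrence with heart libraries that had not chosen the regions, the classes were made again without 1 animal's heart libraries and then read in that animal. Its liver libraries, where there were any, stayed in the rule. The left-out heart had an H3K27ac peak at 36.9% of heart-only enhancers in DMR1, 60.0% in DMR11, 69.9% in DMR3, 78.3% in DMR4 and 83.1% in DMR2, a mean of 65.6% ± 18.3 (SD, n = 5). H3K4me1 was recovered at 61.8% in DMR1, 19.5% in DMR11, 53.3% in DMR3, 66.9% in DMR4 and 74.7% in DMR2, a mean of 55.3% ± 21.4. The 2 marks overlapped over the animals, and DMR1 alone had more H3K4me1 than H3K27ac. By the rule the regions are H3K27ac consensus regions, which H3K4me1 had only to overlap. The marks are thus not on an equal footing, and the part of this was not tested. The difference of 10.4 percentage points was smaller than the spread between animals (two-sided exact permutation test, p = 0.429, smallest possible p 0.00794). It rests on single libraries and was 1.34 without the H3K4me1 library of DMR11 and 17.9 without the H3K27ac library of DMR1. The library left out was then also absent from the rule. Within the vl hearts it was 13.7 points (exact p = 0.50), and the 2 do hearts are too few to be left out in turn.

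Heart-only enhancers were recovered less often than liver-shared ones in each left-out heart. For H3K27ac the liver-shared values were 46.5% in DMR1, 72.6% in DMR11, 80.2% in DMR3, 85.3% in DMR4 and 90.1% in DMR2. The difference was −9.27 percentage points ± 2.39 (SD, n = 5 animals), lower in 5 of 5, and larger than its own spread over animals. The two-sided exact sign-flip test gave p = 0.0625, the smallest that 5 animals allow, and 0.0833 after Benjamini-Hochberg adjustment over the 4 tests made, so the threshold of 0.05 could not be passed by this design. Within the vl hearts alone the difference was −6.20 points. Liver-shared regions were also wider, and the rule asked of them a liver consensus region at the same place. The part of either in the difference was not tested.

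The same was done with the liver H3K27ac and H3K4me1 libraries, while liver H3K4me3 and all heart libraries stayed in the rule. A left-out liver had an H3K27ac peak at 5.23% of heart-only enhancers in DMR1, 6.53% in DMR2, 2.00% in DMR3, 4.92% in DMR4 and 1.58% in DMR6. Its H3K4me1 library had one at 7.05%, 17.5%, 5.23%, 5.16% and 7.95% in the same order. H3K4me1 was the higher mark in 5 of 5 livers, by least in DMR4 and by most in DMR2, and the 2 sets of values overlapped. The mean difference was 4.53 points (two-sided exact permutation test, p = 0.0476, adjusted p = 0.0833), which did not pass after adjustment. It passed, at 4.80 points and an adjusted exact permutation p of 0.0317, when the H3K4me1 library of the DMR2 liver was left out. That library then also left the rule, so the liver H3K4me1 consensus rested on fewer libraries. The rule gave 15428 heart-only enhancers in that setting, a different set of regions, and the part of this in the difference was not tested. H3K4me1 lists were also the longer ones in the liver, with 130602 to 165394 peaks against 78131 to 114466 for H3K27ac. With lists cut to equal numbers of peaks within each mark, which left 3660 heart-only enhancers, both mark differences passed, at 19.9 points in the heart and 7.14 points in the liver (unpaired exact permutation tests, adjusted p = 0.0317 for each). The marks come from the same animals, and an exact sign-flip test paired by animal cannot give a p below 0.0625, so no mark difference could pass when paired. List length then still differed between the marks, with 51446 H3K27ac and 32893 H3K4me1 peaks per heart and 78131 and 130602 per liver, and in each tissue the mark with the longer lists was the higher one. The parts of list length and of region ends drawn from heart H3K27ac in these differences were not tested. Liver-shared enhancers stood far apart, with an H3K27ac peak in the left-out liver at 50.1% to 66.3%, although that set was itself chosen for liver signal in the other animals.

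**Figure D3:**
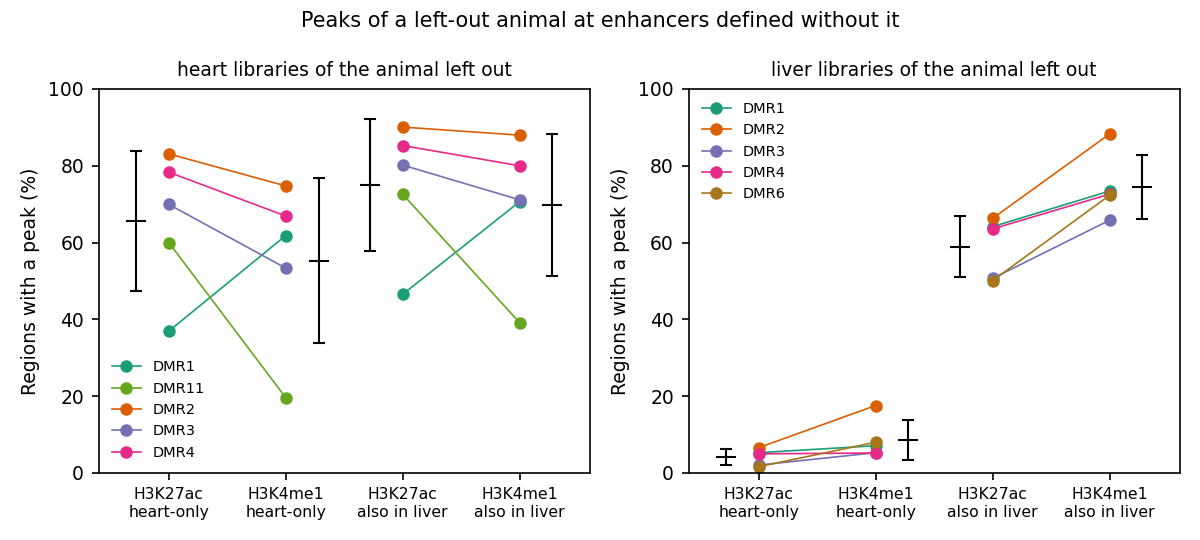
Share of regions in percent with an H3K27ac or H3K4me1 peak in the left-out animal, for heart libraries (left) and liver libraries (right), at heart-only and liver-shared active enhancers. These were defined without the animal's heart libraries (left) or without its liver H3K27ac and H3K4me1 libraries (right). Lines join the 2 marks of an animal and black bars give the mean and SD over 5 animals. Heart recovery of heart-only enhancers spans 36.9% to 83.1% for H3K27ac and 19.5% to 74.7% for H3K4me1, while the left-out liver stays at or below 17.5%.

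Heart-only enhancers lay farther from heart H3K4me3 regions, the stand-in for promoters, than liver-shared ones. Their median distance, edge to edge, was 24370 bases, against 16358.5 bases for liver-shared enhancers, 26806.5 for heart-only primed enhancers and 34054.5 for active enhancers of the liver without a heart region. Of the heart-only enhancers, 15.8% lay under 5 kb from an H3K4me3 region, 28.5% at 5 to under 20 kb, 26.6% at 20 to under 50 kb, 16.7% at 50 to under 100 kb and 12.3% at 100 kb or more. The scaffold of 130 held no H3K4me3 region, and 41 touched one by less than the rule counts. Width changed little over these bins, from 808 to 845.5 bases at the median, and the median distance was 24045 bases for enhancers with a peak in 2 hearts and 24242 for those with a peak in 5.

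The distance was measured again with heart libraries that had not chosen the regions. The liver libraries of the same animals, where there were any, stayed in the rule. To the left-out heart's own H3K4me3 peaks, the median distance of heart-only enhancers was 18747 bases in DMR1, 37803 in DMR11, 19208 in DMR2, 22343.5 in DMR3 and 16178 in DMR4. Liver-shared enhancers were at 12300.5, 24591, 12429, 14165 and 12195 bases in the same order. Each heart had the heart-only enhancers farther, although the values of different hearts overlap, and DMR11, the heart with the shortest H3K4me3 list, stood above the others in both classes. On a log2 scale the difference was 0.58 ± 0.10 (SD, n = 5 animals), farther in 5 of 5, with a two-sided exact sign-flip p of 0.0625, the smallest possible, and an adjusted p of 0.0833. Within the vl hearts it was 0.79.

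**Figure D4:**
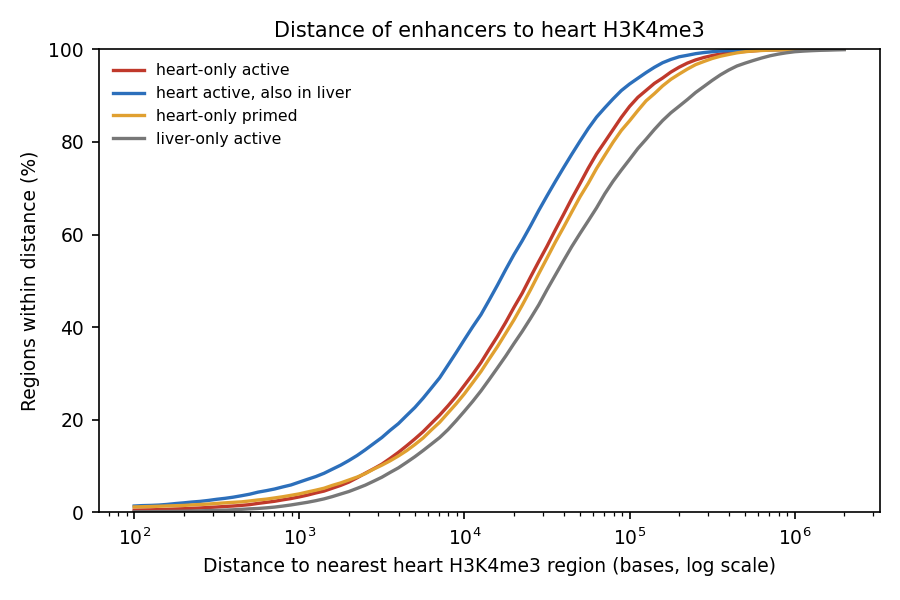
Cumulative share of regions in percent against the distance in bases (log scale) to the nearest heart H3K4me3 consensus region, for heart-only active, liver-shared active, heart-only primed and liver-only active enhancers. The curve of the heart-only active enhancers runs to the right of the liver-shared one, with medians of 24370 and 16358.5 bases, and close to that of the heart-only primed enhancers.

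The H3K4me3 regions nearest to heart-only enhancers were less often found in the liver. Of all 27698 heart H3K4me3 regions, 63.7% overlapped a liver H3K4me3 region, but 48.3% of the nearest ones to heart-only enhancers did, against 64.5% for liver-shared enhancers. Heart-only primed enhancers had 57.2%, also below the share of all H3K4me3 regions. Active enhancers of the liver without a heart region had 72.1%. An H3K4me3 region found in the heart and not in the liver was the nearest one for 0.727 heart-only enhancers on average, and one found in both tissues for 0.387. The same direction was seen with each heart's own H3K4me3 peaks, 34.3% against 46.9% in DMR2, 26.98% against 40.8% in DMR4, 35.4% against 47.6% in DMR1, 40.7% against 54.3% in DMR3 and 74.3% against 87.6% in DMR11, always the heart-only value first. Over all H3K4me3 peaks of these hearts the shares were 51.5%, 37.6%, 55.2%, 59.7% and 87.1% in the same order. The heart-only value lay below this in each heart, and the liver-shared value in DMR2, DMR1 and DMR3. The classes here were the full ones, which these lists helped choose. Level varied widely between hearts, with DMR11 above the rest. Liver H3K4me3 rests on 2 animals. Restricting heart H3K4me3 to the 15938 regions with a peak in all 5 hearts raised the median distance of heart-only enhancers to 38308.5 bases and that of liver-shared ones to 24628.5. Of the nearest regions of heart-only enhancers, 78.8% were then also in the liver, against 90.3% for liver-shared ones and 90.1% of all 15938.

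Heart-only enhancers lay within 10 kb of their own kind less often than each other set measured. A further heart-only enhancer lay within 10 kb of 60.2% of them, and the median gap to the nearest one was 4870 bases. A gap of 1000 bases or less was found for 31.96%. After regions with such gaps were joined, 11756 regions were left and 43.7% of them lay within 10 kb of another. With lists cut to equal numbers of peaks the share without joining was 38.4%. Liver-shared enhancers were closer together, with 67.0% within 10 kb of another of their kind and 50.6% after joining. Active enhancers of the liver without a heart region had 72.5% and 47.2%. All 30348 active heart enhancers had 75.6% and 60.0%. The sets differ in number of regions, and the part of this was not tested. Linked at 10 kb, the heart-only enhancers formed 8621 groups. After joining at 1000 bases there were 113 groups of 5 or more with 692 regions (5.89%), and the largest held 17. Without joining, 5677 held a single enhancer, 1732 held 2, 896 held 3 or 4 and 316 held 5 or more, the last with 2135 enhancers (15.0%). Enhancers in groups of 5 or more had a median width of 858 bases, a median H3K27ac fold of 5.64 and a distance to H3K4me3 of 25029 bases, against 808, 5.58 and 24633 for single ones.

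Neighbours tended to be of the same class. Among all active heart enhancers, 47.0% were heart-only, but the nearest active enhancer was heart-only for 65.8% of heart-only enhancers and for 28.9% of liver-shared ones. Counting only neighbours more than 1000 bases away, the shares were 60.3% and 35.6%. Active enhancers of the liver without a heart region lay within 10 kb of 11.7% of heart-only and 31.2% of liver-shared enhancers. The order was the other way round for heart-only primed enhancers, found within 10 kb of 49.5% of heart-only and 38.3% of liver-shared enhancers. These shares describe the same lists that chose the classes and carry no test.

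Of the 3 largest groups at 10 kb linkage, the largest, KN121537.1:3142290-3231075, held 25 heart-only enhancers that covered 39477 of 88786 bases. Of these, 12 had an H3K27ac peak in all 5 hearts and 3 had a TBX5 peak, and mean folds ran from 4.59 to 22.5 with a median of 6.03. It held 1 liver-shared enhancer and 2 heart H3K4me3 regions. The next, KN122666.1:396662-486255, held 24 heart-only enhancers, 5 of them recurrent in all 5 hearts and none with a TBX5 peak, together with 5 liver-shared enhancers. The third, KN122776.1:752444-829392, held 19, of which 8 were recurrent in all 5 hearts and 5 had a TBX5 peak, and it held no H3K4me3 region. Its enhancers lay 11586 to 88106 bases from the nearest one.

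TBX5, which no part of the rule used, was found at 1692 heart-only enhancers (11.9%, 95% Wilson interval 11.4% to 12.4%). This is near the 11.5% of all heart H3K27ac regions, and below the 13.9% of liver-shared enhancers and the 14.0% of promoters. Heart-only primed enhancers had 4.66% and active enhancers of the liver without a heart region 5.54%. With lists cut to equal numbers of peaks the heart-only share was 19.0%, at a median width of 1514 bases. The share of all heart H3K27ac regions was not measured with the cut lists, so this value has no background. With 1 TBX5 library there is no test, and the intervals cover counting error only. The classes differ in width, and the share depended on it. Among heart-only enhancers it was 4.14% under 500 bases, 6.13% at 500 to under 1000 bases, 14.0% at 1000 to under 2000 bases and 34.1% at 2000 bases or more. In each of these bins it was higher than among liver-shared enhancers, with 2.93%, 5.14%, 11.8% and 30.7%, although the intervals overlapped in the bins under 1000 bases. All heart H3K27ac regions lay between the 2 classes, with 3.596%, 5.82%, 12.8% and 32.9%, near the heart-only shares. Per covered length the heart-only enhancers held 107.1 TBX5 summits per Mb, against 97.5 in all heart H3K27ac regions, 92.1 in liver-shared enhancers, 96.9 in promoters, 63.8 in heart-only primed enhancers and 60.8 over all scaffolds.

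Heart-only enhancers with stronger and more recurrent H3K27ac carried TBX5 more often. The share was 4.85% of those with a peak in 2 hearts, 6.29% with 3, 10.4% with 4 and 24.0% with 5. Over all heart H3K27ac regions it was 4.15%, 5.88%, 9.08% and 21.4%, so the rise was general. Liver-shared enhancers had 3.71%, 5.13%, 9.96% and 24.5%, below the heart-only share with 2, 3 and 4 hearts and above it with 5. Among heart-only enhancers it rose over 4 equal bins of H3K27ac fold from 4.74% to 6.26%, 10.5% and 26.0%. Width, fold and recurrence rise together and were not separated. Summits per Mb rose from 76.8 with 2 hearts to 125.9 with 5 at heart-only enhancers. Over all heart H3K27ac regions they rose from 72.0 to 107.0. At heart-only enhancers they also differed by width, with 79.7 under 500 bases and 130.4 at 2000 bases or more. Position in a group made little difference, with 12.05% of single enhancers and 12.2% of those in groups of 5 or more. TBX5 peaks at heart-only enhancers had a median fold of 4.73 against 4.14 over the whole list of 139418 peaks, and 66.4% of them had a −log10 q of at least 4 against 45.1%. The strength of TBX5 peaks at other heart H3K27ac regions was not measured, so this is not shown to be particular to heart-only enhancers. Among the 2262 enhancers found with each library series separately, 23.5% had a TBX5 peak, with a median width of 1971 bases. The share of heart H3K27ac regions found in the same way was not measured.

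**Figure D5:**
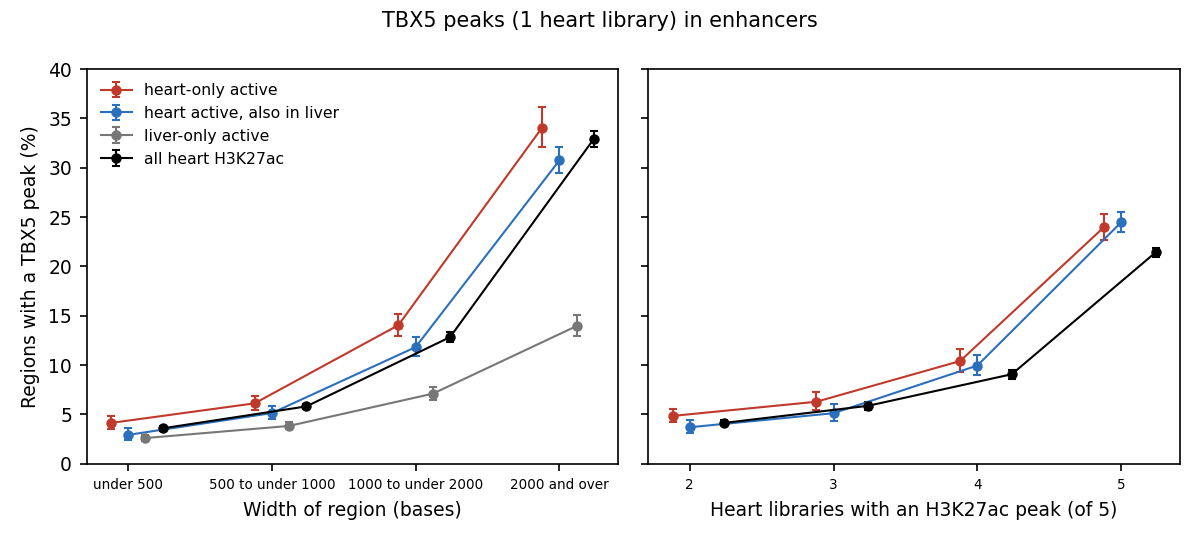
Share of regions in percent with a TBX5 peak, by region width in bases (left) and by the number of hearts with an H3K27ac peak (right), with 95% Wilson intervals that cover counting error only. At heart-only enhancers the share rises from 4.14% to 34.1% over the width bins and from 4.85% to 24.0% over the number of hearts, and all heart H3K27ac regions (black) follow the same rise, from 3.596% to 32.9% and from 4.15% to 21.4%. Liver-shared enhancers rise from 2.93% to 30.7% and from 3.71% to 24.5%.

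Liver transcription factors were read at the heart-only enhancers, which the rule chose for the absence of liver marks. CEBPA, FOXA1, HNF4A, HNF6 and RXRA are factors that bind regulatory DNA of liver cells. Each of the 8 libraries had a peak at 0.596% to 3.13% of heart-only enhancers and at 5.75% to 28.5% of liver-shared ones. Heart-only primed enhancers were lower still with each library, at 0.506% to 2.00%. The highest shares came from HNF6 in DMR1 (3.13%) and HNF4A in DMR4 (3.07%), and the lowest from FOXA1 in DMR1. At least 1 of the 8 libraries had a peak at 1521 heart-only enhancers (10.7%, against 31.3% of all heart H3K27ac regions) and at 44.0% of liver-shared enhancers. Heart-only enhancers with a TBX5 peak had a liver factor peak more often (18.9%) than those without (9.56%), and the part of width in this was not tested.

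The strongest heart-only enhancer by mean H3K27ac fold among those with a peak in all 5 hearts was KN123762.1:4858704-4862200, 3497 bases wide. Its H3K27ac fold was 31.1 in DMR2, 27.4 in DMR4, 21.7 in DMR1, 21.0 in DMR3 and 18.7 in DMR11, a mean of 24.0 ± 5.11 (SD, n = 5). All 5 hearts were far above the list medians, H3K4me1 folds ran from 3.87 to 6.13, no liver library had a peak there, and TBX5 had a fold of 22.9. It lay 74229 bases from the nearest H3K4me3 region. The next, KN120636.1:620309-624049, had a mean of 23.7 ± 9.48, with 36.7 in DMR2 and 12.4 in DMR1 as the extremes, lay 1883 bases from H3K4me3, and had a peak in 1 liver H3K4me1 library. KN121537.1:3204771-3209406, at a mean of 22.5 ± 4.92, lies in the largest group and had no TBX5 peak. KN122569.1:3489937-3496074 had a mean of 22.0 ± 4.25 and KN122676.1:4860181-4861700 of 21.9 ± 4.95, with TBX5 folds of 6.13 and 13.8. No liver library had a peak at 4 of these 5 regions.

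The highest TBX5 folds were not at the regions of highest acetylation. KN123190.1:2522742-2525720 had a TBX5 fold of 40.2 and a mean H3K27ac fold of 7.99 ± 1.92, and lay 176244 bases from H3K4me3. KN124101.1:1477223-1479359 had 35.9 and 10.2 ± 3.18, and KN123775.1:424123-425512 had 34.5 and 6.75 ± 0.919. Each had H3K27ac in all 5 hearts, no liver peak, and a distance to H3K4me3 above the class median. The widest region, KN122666.1:354892-369041, spanned 14150 bases with a mean fold of 13.7 ± 3.58 and a TBX5 fold of 19.5, and liver peaks of 1 H3K27ac and 2 H3K4me1 libraries lay in it. The region farthest from H3K4me3, KN124222.1:261891-262621, was 1264983 bases away, had H3K27ac in 3 hearts at folds of 3.46 to 4.50, and had no TBX5 peak. KN122228.1:6550277-6551410 touched an H3K4me3 region and had H3K4me3 peaks of 2 hearts in it, with H3K27ac folds from 5.06 to 16.9.

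The same rule gave 5955 heart-only active enhancers in the naked mole-rat (39.3% of its active heart enhancers), 10768 (44.9%) in guinea pigs and 15482 (55.9%) in mice, against 14253 (47.0%) in the Damaraland mole-rat. Ages, numbers of libraries and scaffold lengths differ between species, and these counts are set side by side without a test. Scaffolds of 1 Mb or more held 75.6% of the heart-only enhancers in the naked mole-rat, 98.2% in guinea pigs and 100% in mice, against 94.6% in the Damaraland mole-rat. Median widths of 866, 824 and 916 bases were below those of liver-shared enhancers in each species, 1295, 1204 and 1379 bases. Median distances to heart H3K4me3 of 29842, 28142.5 and 24877 bases were above those of the liver-shared enhancers, 19513, 18242 and 15200 bases. The narrower width and the larger distance of heart-only enhancers relative to liver-shared ones were thus seen in 4 of 4 species.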

How the data were processed

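ChIP-seq peak lists of Damaraland mole-rat heart and liver were used, 27 of histone marks and 9 of transcription factors, 1 list per library. Per the submitters' processing notes MACS2 was used. Aligner and version details were not given in the sources used here. Files name the build DMR_v1.0. The deposited fold of a peak is the caller's linear ratio over background, and the deposited −log10 q-value is the caller's own. Peak lists carry no read numbers, so depth is unknown.

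Overlapping or touching peaks were merged, and 2 regions counted as overlapping at 50% of the shorter. Wilson 95% intervals cover counting error only. Differences over animals used two-sided exact permutation tests between marks, unpaired, and two-sided exact sign-flip tests over animals, with Benjamini-Hochberg adjustment over 4 tests at 0.05. Libraries with the same number come from 1 animal named in the labels, so the replicate numbers pair libraries. Fold and −log10 q only described or filtered peaks within a list. Regions were named by rank: the 5 highest mean folds with a peak in all 5 hearts, the 3 largest groups, the 3 highest TBX5 folds, the widest, the nearest to and farthest from H3K4me3 on scaffolds of 1 Mb or more, and those nearest the 50% limit. The regions and lists were chosen with earlier results of these data known. Alternatives were other thresholds, overlaps, consensus sizes, library series and single libraries left out. The class rules, distances and tests were tested on simulated data. Python 3.11.15, NumPy 2.4.6, pandas 2.3.3, SciPy 1.17.1 and Matplotlib 3.10.9 were used. Chromosome conformation and input samples were not analysed here.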

Additional observations from a re-analysis of the deposited data

Results flagged for a closer look

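In 6 of 22 groups of 5 libraries, 1 library stood apart from the other 4 by Dixon's ratio of its gap to the range, which chance gives in about 1 of 20 groups. The groups share libraries and are not independent. The strongest heart H3K27ac peak at heart-only enhancers had a median width of 606.5 bases in DMR4 against 428 to 457 in the other hearts, and that of the liver libraries was 288 bases in DMR2 against 204.5 to 228.5. The left-out liver of DMR2 had H3K4me1 at 17.5% of heart-only enhancers against 5.16% to 7.95% in the other 4. The heart of DMR11 stood apart in distance to its own H3K4me3 peaks, at a median of 37803 bases with that heart left out against 16178 to 22343.5, and at 39001 bases for the heart-only enhancers at which it had a peak, against 16567.5 to 22607. Within 10 kb of another heart-only enhancer with a peak in the same heart lay 38.9% in DMR1 against 51.2% to 56.2% in the others. DMR11 had the shortest heart H3K4me3 list and DMR1 the shortest heart H3K27ac list, and the part of list length in these values was not tested.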

How the results depend on the processing

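None of the 4 held-out differences turned direction under the alternatives run for it; with do libraries alone 1 of the 4 could be run. Differences between classes in width, fold, grouping and TBX5 were not rerun. With peaks kept at a −log10 q of at least 4 there were 9484 heart-only enhancers with a median width of 1010 bases, a fold of 6.33 and TBX5 at 9.41%. With at least 3 libraries in a consensus these were 8057, 1183 bases, 6.21 and 14.6%, with 50.4% within 10 kb. With equal numbers of peaks they were 3660, 1514 bases, 7.16, 19.0% and 38.4%, and the held-out differences between marks passed the threshold, at 19.9 points in the heart and 7.14 in the liver. Of these 3660, 83.0% overlapped the 14253. The do libraries gave 8483, 923 bases, 6.41, 12.8% and 52.3%, and the vl libraries 7341, 960 bases, 6.26, 14.5% and 52.1%. Dropping the H3K4me1 requirement gave 31387, 625 bases, 5.24, 9.55% and 73.7%. An overlap of 80% gave a width of 900 bases and TBX5 at 10.9%, and of 1 base TBX5 at 14.1%. The share within 10 kb, 60.2%, became 49.7% at 5 kb, 74.0% at 25 kb and, added after seeing the data, 43.7% after joining. The H3K4me3 regions in 5 of 5 hearts, also added later, gave 38308.5 bases.

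Leaving out 1 of 25 libraries at a time gave 10507 to 15428 heart-only enhancers, the fewest without the heart H3K4me1 library of DMR2, widths of 743 to 893 bases, TBX5 shares of 11.6% to 13.1% and a liver difference of 3.49 to 6.77 points. The heart difference ran from 1.34 to 17.9 points. With the replicate block, the pairing by animal, the heart difference of 10.4 points had an exact sign-flip p of 0.375 and the liver difference of 4.53 points one of 0.0625 (adjusted p = 0.0833), and no call of the reported setting changed. Peak lists hold no read numbers, so a missing peak in a short list cannot be told apart from a missing mark.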
